A study of Rattus norvegicus with 16 samples.

Results

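Macrophages and related myeloid cells sit among the neurons of the dorsal root ganglion (DRG), and 37 genes that mark them were followed here in rats with a tumor in the tibia. The genes were chosen by symbol from the 21021 genes of the expression tables, and each of the 37 was found in 1 row only. They were grouped by role into 6 genes shared by leukocytes, 7 shared by macrophages, 8 of resident macrophages, 6 inflammatory genes, 4 subunits of the phagocyte oxidase, 2 lysozymes and 4 receptors or lectins of phagocytes. The question put to them was whether genes of resident macrophages and genes of recruited, inflammatory cells moved alike after the tumor was implanted.

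The animals were adult female Sprague-Dawley rats. In tumor cell implantation (TCI), Walker-256 cells, a rat mammary carcinoma line, were put into the left tibia, and the L3–L5 DRGs of the same side of 1 rat were pooled as 1 sample. There were 4 samples each of sham rats and of rats at days 1, 7 and 14 after TCI, 16 in all, and no gene was altered in any group. The labels place the sham samples at day 14 only, so on days 1 and 7 the tumor and the time since surgery cannot be told apart. The labels describe sham surgery with buffered saline, and the methods describe boiled tumor cells. The study's own account lacks 1 rat of day 1 (sample 2) and 1 of day 7 (sample 3), so 14 samples were used here, with 4, 3, 3 and 4 in the groups, and the values of the left-out samples are given beside them. Expression is given as FPKM, in which fragment numbers are scaled to transcript length and to the mapped total, a level per length that can be compared between genes.

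The samples carried the markers of a sensory ganglion. The summed level of 8 sensory neuron genes lay between 4083 and 5191 FPKM in the 14 samples, and that of 5 Schwann cell genes between 6804 and 13740 FPKM. Sample 3 of TCI day 7 stood apart, with 2801 FPKM for the neuron genes and 22350 FPKM for 10 skeletal muscle genes, which summed to at most 20.64 FPKM in all used samples but sample 4 of sham, at 488.4 FPKM.

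Resident macrophages of nerve and ganglion live beside vessels and neurons, clear debris through scavenger receptors such as CD163, the mannose receptor and stabilin-1, and are renewed in place. Monocytes that enter from blood carry integrins and pattern receptors, assemble the NADPH oxidase that makes superoxide, and secrete lysozyme. The transcription factor PU.1, encoded by Spi1, drives myeloid identity and binds sites with the core GAGGAA.

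To show sequence beside the values, the members' promoters were read from RefSeq on the rat build GRCr8. Windows of 300 bases, from 250 before to 50 after the gene start, were found for 29 of the 37 members, and not for Itgb2, Spi1, Aif1, Siglec1, Clec10a, Ncf4, Msr1 and Lgals3. The letters GAGGAA, on either strand, were in 16 of the 29 windows (55.2%) and in 27.6% of all 33469 windows of that length. The longer pattern of GGAA and, after any 2 bases, GAAA, on either strand, a site of the kind that PU.1 or a related ETS factor can share with an interferon regulatory factor, was in Cd68, Cybb, Gpnmb and Marco, 4 of the 29 (13.8%), against 2.94% of all windows. The core was found in 3 of 6 windows of resident genes and in 5 of 11 windows of the inflammatory, oxidase and lysozyme genes. These are matches of letters and not sites shown to be bound, and the genome build behind the expression values is not given in the sources used here.

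The 200 bases before the gene start are printed 5′ to 3′ on the strand of the gene for 6 members, with matches to both motifs in capitals. Cd68 and Cybb are shown because both motifs overlap there close to the start, Mrc1 and Stab1 as resident genes with the core, and Lyz2 beside Lyc2 because these neighbors on chromosome 7 are near copies. Cd68 spans chr10:54882442-54882641 (minus strand), Cybb chrX:16065066-16065265 (minus strand), Mrc1 chr17:82157525-82157724 (plus strand), Stab1 chr16:6367360-6367559 (minus strand), Lyz2 chr7:54798012-54798211 (minus strand) and Lyc2 chr7:54772809-54773008 (plus strand).
Cd68: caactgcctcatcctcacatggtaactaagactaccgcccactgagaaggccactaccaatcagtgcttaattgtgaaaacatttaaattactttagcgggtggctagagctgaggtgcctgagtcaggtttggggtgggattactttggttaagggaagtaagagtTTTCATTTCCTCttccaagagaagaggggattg
Cybb: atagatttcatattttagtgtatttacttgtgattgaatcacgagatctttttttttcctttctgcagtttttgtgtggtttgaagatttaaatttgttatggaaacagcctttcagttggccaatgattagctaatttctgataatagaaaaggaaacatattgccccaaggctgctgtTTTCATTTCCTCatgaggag
Mrc1: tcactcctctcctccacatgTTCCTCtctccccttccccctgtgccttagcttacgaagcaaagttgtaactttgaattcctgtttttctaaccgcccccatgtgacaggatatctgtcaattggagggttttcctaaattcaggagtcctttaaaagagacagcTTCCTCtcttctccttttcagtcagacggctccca
Stab1: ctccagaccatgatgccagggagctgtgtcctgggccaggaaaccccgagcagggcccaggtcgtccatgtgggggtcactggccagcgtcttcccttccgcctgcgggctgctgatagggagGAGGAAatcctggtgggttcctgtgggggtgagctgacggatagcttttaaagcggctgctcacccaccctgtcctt
Lyz2: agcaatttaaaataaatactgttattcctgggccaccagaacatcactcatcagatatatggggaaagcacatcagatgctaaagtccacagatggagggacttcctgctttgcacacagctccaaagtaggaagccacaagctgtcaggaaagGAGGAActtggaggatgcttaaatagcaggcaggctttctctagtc
Lyc2: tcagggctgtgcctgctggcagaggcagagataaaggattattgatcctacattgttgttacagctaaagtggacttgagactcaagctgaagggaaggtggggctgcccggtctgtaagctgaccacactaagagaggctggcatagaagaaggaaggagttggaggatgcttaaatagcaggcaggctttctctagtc
The Lyz2 and Lyc2 windows were 65.9% identical over an alignment of 328 columns and the same letter for letter over their last 89 bases, of which 39 lie before the start.

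Genes were tested on log2(FPKM + 1) where they reached 1 FPKM in at least 3 of the 14 samples, which 14023 genes did. Of the 37 members 34 were tested. Vsig4, a complement receptor of resident macrophages, was at 0 in all sham samples and reached at most 0.12 FPKM. Marco, a scavenger receptor, was listed at 0 in all samples but sample 2 of TCI day 7, at 0.04 FPKM. Cd80, a costimulatory ligand, lay between 0.35 and 0.46 FPKM in sham, 0.57 and 1.05 on day 7 and 0.39 and 1.03 on day 14. Among the 34 tested members, 22 would have passed this filter on sham and day 1 samples alone. The other 12 passed it only through days 7 and 14, so they had to be higher there, and the counts of calls are over 34 members and not 37.

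Myeloid genes did not move detectably on TCI day 1, rose on day 7 and were raised on day 14 too, where fewer passed the cut-offs. On day 1 the median log2 difference from sham of the 34 members was 0.03, against 0.0009 for all genes, and no member was called at the study's cut-offs (log2 difference of at least 1, adjusted p of at most 0.001) or at a looser adjusted p of 0.05 with the same fold. In limma 0% of all genes were called higher at either cut-off, 734 genes had a raw p below 0.05, and the lowest adjusted p was 0.736. Only Laptm5, F13a1 and Cyba had all 3 day 1 samples above all 4 sham samples, 3 of 34, against 6.17% of all genes.

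On TCI day 7, 21 of the 34 were called higher (1.83% of all genes), 31 at the looser adjusted p (3.93%), and all 34 had every day 7 sample above every sham sample (23.8%). The members' log2 differences ran from 0.42 to 4.58 with a median of 1.95, where the median of all genes was 0.04. Of the 22 that pass the filter without the late samples, 15 were called and 19 passed at the looser adjusted p. In a ganglion, more cells of a type and more RNA per cell cannot be told apart. On TCI day 14, 7 of the 34 were called higher (0.642% of all genes), 26 at the looser adjusted p (2.58%), and 28 did not overlap with sham (13.8%), with a median of 1.26 against 0.03 for all genes. Of the same 22, 5 were called and 16 passed at the looser adjusted p. The 7 were Cd68, Mpeg1, Ms4a7, Clec10a, Lilrb4, Lyz2 and Lyc2. Without sample 2 of TCI day 14 the fit called 13 members on that day but only 16 at the looser adjusted p.

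**Figure D1:**
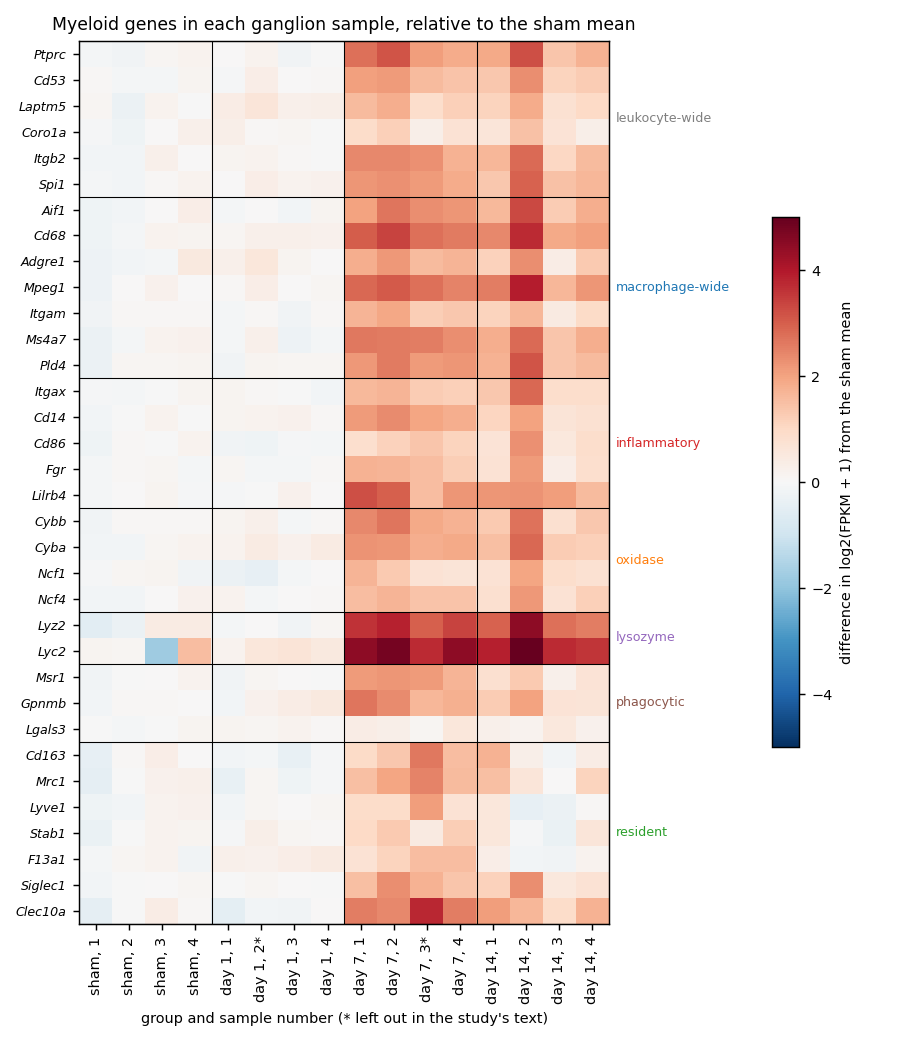
Each row is 1 of the 34 tested members, grouped by role, each column 1 of the 16 samples, and the color the difference in log2(FPKM + 1) from the mean of the 4 sham samples. Day 1 columns are near white, day 7 columns are red for every role, and on day 14 sample 2 is the darkest for most roles while the resident rows pale.

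The genes shared by leukocytes rose on both late days. Ptprc encodes CD45, the phosphatase on all nucleated blood cells, and stood at 0.46, 0.4, 0.69 and 0.79 FPKM in sham, 0.6, 0.4 and 0.55 on day 1, 9.55, 12.93 and 4.69 on day 7 and 4.88, 13.77, 3.11 and 4.29 on day 14, with 0.78 and 5.77 in the left-out samples of days 1 and 7. Spi1, the gene of PU.1, stood at 1.54, 1.46, 1.79 and 2.09 FPKM in sham, 1.72, 2.03 and 2.11 on day 1, 11.47, 12.34 and 8.86 on day 7 and 5.93, 20.2, 6.53 and 7.55 on day 14, with 2.45 and 10.83 in the left-out samples of days 1 and 7. Both were at or under 2.09 FPKM in sham and at or above 3.11 FPKM in each late sample. The log2 difference from sham, given with its standard error, was 2.58 ± 0.37 (adjusted p = 0.000496) on day 7 and 2.06 ± 0.34 (adjusted p = 0.00215) on day 14 for Ptprc. For Spi1 it was 2.12 ± 0.29 (adjusted p = 0.000405) on day 7 and 1.86 ± 0.27 (adjusted p = 0.00104) on day 14. The other leukocyte genes differed by less than Ptprc on day 7. The integrin chain Itgb2 and the tetraspanin Cd53 rose by 2.18 and 1.88 on the log2 scale on day 7, the lysosomal Laptm5 by 1.53, and the actin regulator Coro1a, at 30.6 FPKM already in sham, differed by 0.95 (adjusted p = 0.00886), under the fold cut-off. T cells express Ptprc, Cd53, Coro1a, Laptm5 and Itgb2 too, and 6 of 6 tested T cell genes were called higher on day 7 (1.83% of all genes) and 3 on day 14 (0.642%). The T cell genes together summed to at most 1.5 FPKM in sham and 1.67 on day 1. Most of them were thus tested only through days 7 and 14 and had to be higher there. The part of T cells in these values was not tested.

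Aif1, which encodes the macrophage protein IBA1, stood at 5.85, 6.23, 6.96 and 9.06 FPKM in sham, 6.46, 6.2 and 7.66 on day 1, 31.16, 49.94 and 35.55 on day 7 and 23.09, 76.21, 18.23 and 26.79 on day 14, with 6.99 and 38.72 in the left-out samples of days 1 and 7. Its log2 difference was 2.30 ± 0.36 (adjusted p = 0.000878) on day 7 and 1.99 ± 0.33 (adjusted p = 0.00224) on day 14. Cd68, a lysosomal membrane protein of phagocytes, stood at 1.7, 1.98, 2.53 and 2.49 FPKM in sham, 2.35, 2.74 and 2.64 on day 1, 24.96, 31.86 and 18.12 on day 7 and 15.7, 40.78, 10.67 and 12.23 on day 14, with 2.76 and 20.3 in the left-out samples of days 1 and 7. Its means were 11.5 and 9.12 times the sham mean on days 7 and 14, and the log2 differences were 3.01 ± 0.34 (adjusted p = 0.000135) and 2.52 ± 0.31 (adjusted p = 0.000518). No late sample of either gene came down to the sham range, and on day 14 sample 2 was far above the other 3. The remaining macrophage genes had day 7 log2 differences between 1.66 for the integrin Itgam and 2.81 for the pore-forming Mpeg1. Adgre1, which encodes F4/80, missed the strict cut-off on day 7 (1.90, adjusted p = 0.0019), and it alone of the 7 overlapped with sham on day 14. Ms4a7, a tetraspan protein of mature macrophages, was at 13.7 times the sham mean on day 7 and 9.42 times on day 14.

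The lysozymes, enzymes that cleave bacterial cell walls, changed most in FPKM. Lyz2 stood at 35.86, 43.15, 69.71 and 71.35 FPKM in sham, 48.9, 47.04 and 55.79 on day 1, 656.84, 780.41 and 550.45 on day 7 and 408.3, 1184.67, 361.31 and 318.83 on day 14, with 53.37 and 422.34 in the left-out samples of days 1 and 7. Lyc2 stood at 3.3, 3.22, 0.14 and 10.55 FPKM in sham, 3.4, 5.08 and 4.59 on day 1, 87.35, 108.37 and 85.61 on day 7 and 57.11, 164.98, 51.27 and 45.35 on day 14, with 4.8 and 51.78 in the left-out samples of days 1 and 7. Every late sample was above every sham sample for both genes. The log2 differences were 3.61 ± 0.38 (adjusted p = 9.27e-05) on day 7 and 3.18 ± 0.35 (adjusted p = 0.000248) on day 14 for Lyz2, and 4.58 ± 0.60 (adjusted p = 0.000297) and 4.14 ± 0.56 (adjusted p = 0.000709) for Lyc2. The 2 genes are near copies, so reads may have been divided between them by the authors' estimates. In sham Lyc2 lay at 0.14 FPKM in sample 3 and 10.55 in sample 4 while Lyz2 was alike in both, so the size of the Lyc2 change is uncertain.

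The NADPH oxidase of phagocytes has 2 membrane subunits, Cybb and Cyba, and cytosolic ones that include Ncf1 and Ncf4. Cybb, the catalytic subunit, stood at 0.8, 1.11, 1.16 and 1.14 FPKM in sham, 1.25, 0.91 and 1.15 on day 1, 9.71, 11.93 and 5.83 on day 7 and 4.11, 12.32, 2.54 and 4.26 on day 14, with 1.45 and 6.65 in the left-out samples of days 1 and 7. Cyba, its membrane partner, stood at 7.83, 7.72, 9.17 and 9.83 FPKM in sham, 9.88, 10.01 and 11.67 on day 1, 43.97, 43.78 and 34.63 on day 7 and 25.95, 68.5, 21.95 and 20.88 on day 14, with 11.92 and 32.94 in the left-out samples of days 1 and 7. No late sample of either gene came down to the sham range. Both were called on day 7, at 2.26 ± 0.34 (adjusted p = 0.000715) and 2.11 ± 0.30 (adjusted p = 0.00052), and both passed only the looser adjusted p on day 14, at 1.54 ± 0.32 (adjusted p = 0.00657) and 1.70 ± 0.28 (adjusted p = 0.00216). The cytosolic subunits changed less. Ncf1, the organizer subunit, stood at 6.1, 6.9, 7.15 and 5.61 FPKM in sham, 5.04, 6.02 and 6.44 on day 1, 22.78, 17.37 and 10.73 on day 7 and 11.11, 27.97, 12.64 and 11.71 on day 14, with 4.57 and 11.29 in the left-out samples of days 1 and 7. Ncf4 stood at 0.73, 0.72, 0.94 and 1.22 FPKM in sham, 1.15, 0.92 and 0.95 on day 1, 4.56, 5.09 and 4.1 on day 7 and 2.27, 7.46, 2.15 and 3.32 on day 14, with 0.75 and 4.08 in the left-out samples of days 1 and 7. Their late samples were above their sham samples too. The log2 differences were 1.22 ± 0.28 (adjusted p = 0.00873) for Ncf1 and 1.56 ± 0.26 (adjusted p = 0.00136) for Ncf4 on day 7, and 1.08 ± 0.26 (adjusted p = 0.0141) and 1.22 ± 0.24 (adjusted p = 0.00565) on day 14. Of 4 further genes of the oxidase, its GTPases and its proton channel, all tested, 1 was called higher on each of days 7 and 14 (1.83% and 0.642% of all genes) and none lower.

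Among inflammatory genes, Lilrb4, an inhibitory receptor of activated myeloid cells, rose most. It stood at 0.18, 0.28, 0.39 and 0.23 FPKM in sham, 0.22, 0.48 and 0.27 on day 1, 10.98, 8.94 and 4.82 on day 7 and 4.79, 4.94, 4.35 and 2.82 on day 14, with 0.24 and 2.74 in the left-out samples of days 1 and 7. Its mean was 30.5 times the sham mean on day 7 and 15.6 times on day 14, with log2 differences of 2.80 ± 0.21 (adjusted p = 1.66e-05) and 2.02 ± 0.20 (adjusted p = 0.000126). No late sample of Lilrb4 came down to the sham range. Cd14, the endotoxin coreceptor of monocytes, stood at 0.76, 0.92, 1.15 and 0.88 FPKM in sham, 1.1, 1.21 and 1.02 on day 1, 7.51, 8.95 and 5.75 on day 7 and 3.08, 6.85, 1.99 and 2.3 on day 14, with 1.15 and 6.64 in the left-out samples of days 1 and 7, with log2 differences of 2.11 ± 0.26 (adjusted p = 0.000204) and 1.13 ± 0.24 (adjusted p = 0.00742). The day 14 mean of Cd14 was 0.48 times its day 7 mean.

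The other inflammatory genes were under 1 FPKM in sham and passed only the looser adjusted p. Itgax encodes CD11c, an integrin of dendritic cells and activated macrophages, and stood at 0.14, 0.12, 0.17 and 0.32 FPKM in sham, 0.31, 0.17 and 0.08 on day 1, 2.69, 2.82 and 1.68 on day 7 and 1.99, 7.64, 1.15 and 1.15 on day 14, with 0.22 and 1.88 in the left-out samples of days 1 and 7. Cd86, a costimulatory ligand, stood at 0.3, 0.54, 0.48 and 0.67 FPKM in sham, 0.32, 0.42 and 0.4 on day 1, 1.66, 2.3 and 2.23 on day 7 and 1.38, 6.23, 1.13 and 1.78 on day 14, with 0.28 and 2.9 in the left-out samples of days 1 and 7. In both, sample 2 of TCI day 14 was over 3 times any other sample of that day, and their day 14 means were above their day 7 means. Fgr, a kinase of the Src family in myeloid cells, stood at 0.25, 0.39, 0.42 and 0.23 FPKM in sham, 0.41, 0.24 and 0.37 on day 1, 3.45, 3.34 and 2.13 on day 7 and 1.17, 4.71, 0.68 and 1.37 on day 14, with 0.25 and 2.87 in the left-out samples of days 1 and 7. On day 7 the log2 differences were 1.50 ± 0.37 (adjusted p = 0.0131) for Itgax, 1.03 ± 0.31 (adjusted p = 0.0367) for Cd86 and 1.57 ± 0.31 (adjusted p = 0.00352) for Fgr. On day 14 they were 1.48 ± 0.34 (adjusted p = 0.0122), 1.09 ± 0.29 (adjusted p = 0.0236) and 1.01 ± 0.28 (adjusted p = 0.0305) in the same order.

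The phagocyte genes differed among themselves. Msr1, a scavenger receptor, stood at 0.56, 0.71, 0.78 and 0.99 FPKM in sham, 0.55, 0.76 and 0.71 on day 1, 6.61, 7.05 and 4.71 on day 7 and 2.08, 3.37, 1.11 and 1.85 on day 14, with 0.88 and 6.57 in the left-out samples of days 1 and 7. Gpnmb, a glycoprotein of lipid-laden macrophages, stood at 4.97, 5.84, 5.9 and 5.68 FPKM in sham, 5.05, 7.49 and 8.28 on day 1, 40.6, 33.17 and 21.77 on day 7 and 14.72, 25.31, 9.69 and 9.42 on day 14, with 6.56 and 19.88 in the left-out samples of days 1 and 7. Neither came down to the sham range in a late sample. Both were called on day 7, with 2.01 ± 0.20 (adjusted p = 7.31e-05) for Msr1 and 2.27 ± 0.29 (adjusted p = 0.000241) for Gpnmb, and both were nearer to sham on day 14, at 0.77 ± 0.18 (adjusted p = 0.013) and 1.15 ± 0.27 (adjusted p = 0.012). Lgals3, which encodes galectin-3, stood at 130.02, 120.17, 129.24 and 141.76 FPKM in sham, 141.5, 148.44 and 134.56 on day 1, 170.35, 161 and 193.07 on day 7 and 155.86, 148.42, 188.04 and 149.8 on day 14, with 141.06 and 137.87 in the left-out samples of days 1 and 7. It was already at 130 FPKM in sham, and its log2 difference of 0.42 ± 0.09 (adjusted p = 0.00514) was the smallest of the 34 members on day 7. Its 0.29 ± 0.08 (adjusted p = 0.0267) on day 14 was likewise under the fold cut-off, although no used late sample came down to the sham range.

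**Figure D2:**
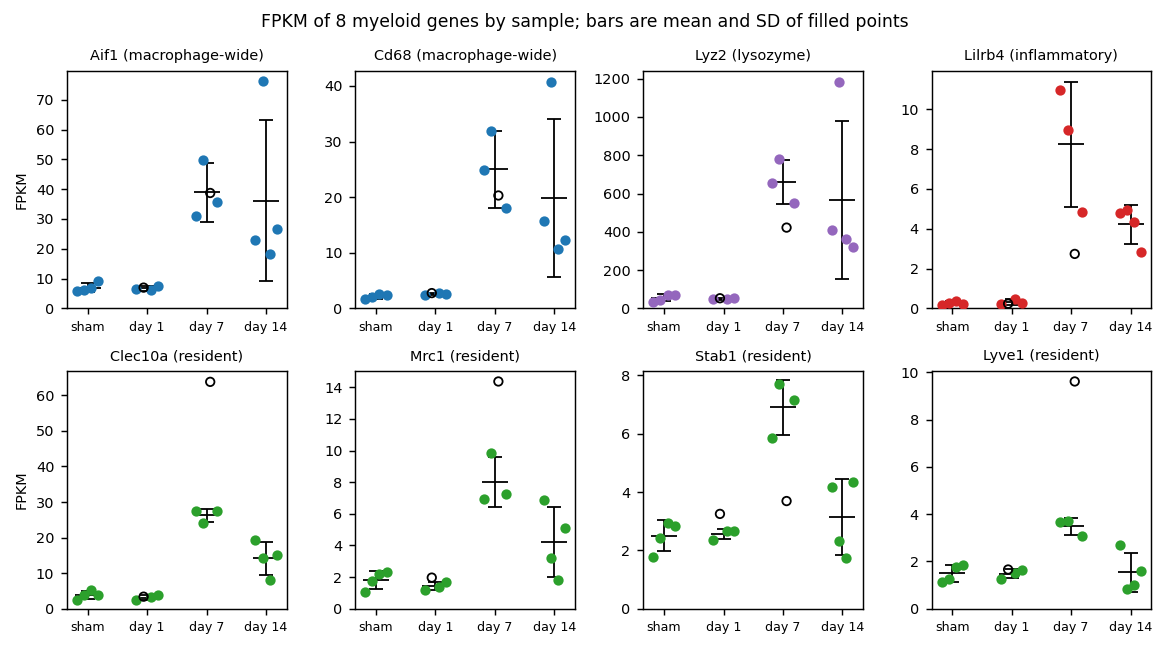
FPKM of 8 members by group, with 1 filled point per used sample, bars for mean and SD, and open points for the left-out samples. Aif1, Cd68, Lyz2 and Lilrb4 stay above sham on days 7 and 14, with 1 high day 14 sample in the first 3, while Mrc1, Stab1 and Lyve1 return toward or into the sham range on day 14.

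Resident macrophage genes rose on day 7 and, for 5 of 7, were back within the sham range in at least 1 sample on day 14. The other 2 of 7 lay above sham without overlap on day 14, against 13.8% of all genes. Overlap with sham on that day is thus not particular to the resident genes. Cd163, the hemoglobin scavenger receptor, stood at 0.29, 0.8, 1.21 and 0.77 FPKM in sham, 0.56, 0.33 and 0.67 on day 1, 2.37, 3.38 and 4.03 on day 7 and 4.77, 1.11, 0.59 and 1.25 on day 14, with 0.62 and 9.68 in the left-out samples of days 1 and 7. Mrc1, the mannose receptor, stood at 1.04, 1.77, 2.19 and 2.34 FPKM in sham, 1.18, 1.4 and 1.71 on day 1, 6.94, 9.83 and 7.28 on day 7 and 6.89, 3.19, 1.8 and 5.08 on day 14, with 1.97 and 14.37 in the left-out samples of days 1 and 7. Both lay above sham in each day 7 sample, and both spread widely on day 14, from within the sham range to over 2 times its upper end. The log2 differences were 1.28 ± 0.34 (adjusted p = 0.0203) for Cd163 and 1.68 ± 0.29 (adjusted p = 0.00146) for Mrc1 on day 7, and 0.57 ± 0.32 (adjusted p = 0.254) and 0.81 ± 0.26 (adjusted p = 0.0572) on day 14, where neither passed the looser rule.

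Lyve1, a hyaluronan receptor of vessel-associated macrophages and of lymphatic endothelium, stood at 1.12, 1.24, 1.78 and 1.85 FPKM in sham, 1.27, 1.51 and 1.64 on day 1, 3.68, 3.7 and 3.07 on day 7 and 2.69, 0.85, 1.01 and 1.6 on day 14, with 1.66 and 9.61 in the left-out samples of days 1 and 7. Stab1, which encodes stabilin-1, stood at 1.78, 2.44, 2.95 and 2.84 FPKM in sham, 2.35, 2.67 and 2.65 on day 1, 5.85, 7.69 and 7.15 on day 7 and 4.18, 2.31, 1.74 and 4.33 on day 14, with 3.25 and 3.69 in the left-out samples of days 1 and 7. F13a1, a clotting factor subunit listed here among the resident genes, stood at 0.61, 0.84, 0.95 and 0.53 FPKM in sham, 1.08, 1.18 and 1.33 on day 1, 1.88, 2.72 and 4.02 on day 7 and 1.16, 0.55, 0.53 and 0.97 on day 14, with 1 and 4.08 in the left-out samples of days 1 and 7. All 3 were higher on day 7 without overlap and overlapped with the sham range on day 14. On day 7 the log2 differences were 0.85 ± 0.20 (adjusted p = 0.0093) for Lyve1, under the fold cut-off on this scale, 1.18 ± 0.21 (adjusted p = 0.00198) for Stab1 and 1.13 ± 0.18 (adjusted p = 0.000891) for F13a1. With a pseudocount of 0.1 Lyve1 passed the looser rule on day 7. On day 14 they were -0.02 ± 0.18 (adjusted p = 0.96), 0.20 ± 0.19 (adjusted p = 0.535) and 0.05 ± 0.16 (adjusted p = 0.878), and the means were 1.03, 1.25 and 1.10 times the sham means.

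Siglec1 and Clec10a behaved otherwise. Siglec1, a sialic acid receptor that interferon induces in macrophages, stood at 0.2, 0.29, 0.34 and 0.42 FPKM in sham, 0.31, 0.33 and 0.3 on day 1, 2.74, 5.65 and 2.39 on day 7 and 1.95, 5.64, 0.91 and 1.15 on day 14, with 0.41 and 3.34 in the left-out samples of days 1 and 7. Clec10a, a galactose lectin of macrophages and dendritic cells, stood at 2.55, 3.76, 5.27 and 4 FPKM in sham, 2.39, 3.25 and 3.82 on day 1, 27.39, 24.11 and 27.36 on day 7 and 19.33, 14.24, 8.11 and 15.06 on day 14, with 3.4 and 63.77 in the left-out samples of days 1 and 7. Neither came down to the sham range in a late sample. Siglec1 passed the looser rule on both days, with 1.74 ± 0.35 (adjusted p = 0.00396) and 1.19 ± 0.32 (adjusted p = 0.0246). Clec10a was called on both, with 2.51 ± 0.24 (adjusted p = 6.09e-05) and 1.60 ± 0.22 (adjusted p = 0.000736).

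Resident and recruited genes both rose on day 7, and their counts parted on day 14. As recruited genes, the 11 tested inflammatory, oxidase and lysozyme members had a median log2 difference of 2.11 on day 7 and 1.48 on day 14. The 7 resident members had 1.28 and 0.57. The size of these medians depends on the scale. With a pseudocount of 0.1 they were 2.86 and 1.97 for the recruited and 2.05 and 0.94 for the resident members. Recruited is the name of a list and not of cells shown to have entered. In sham its Lyz2, Cyba and Ncf1 already averaged 55.0, 8.64 and 6.44 FPKM, while its tested inflammatory genes averaged under 1 FPKM. Which cells carried the genes of either list was not tested. At the looser adjusted p, 11 of 11 recruited and 6 of 7 resident members were higher on day 7 (3.93% of all genes), and 11 of 11 and 2 of 7 on day 14 (2.58% of all genes). Of these, 5 recruited and 2 resident members were tested only because they were high on the late days. Among the rest, 6 of 6 recruited and 4 of 5 resident members passed on day 7, and 6 of 6 and 1 of 5 on day 14, with day 14 medians of 1.62 and 0.20. The days share the sham samples, and no test was made between these lists. The day 14 counts were the same over all 16 samples (2.51% of all genes) and with a pseudocount of 0.1 (4.02%). On day 7 that pseudocount gave 11 of 11 and 7 of 7 (5.5% of all genes). Without sample 2 of TCI day 14 the day 14 counts were 6 of 11 and 1 of 7 (1.74% of all genes). Thus 5 of the 11 recruited calls and 1 of the 2 resident calls needed that sample, and the medians without it were 1.02 and 0.66. Without sample 1 of that day the counts stayed at 11 of 11 and 2 of 7 (2.68% of all genes), and the medians were 1.53 and 0.18. Without sample 3 they were 11 of 11 and 3 of 7, with Mrc1 added (3.22% of all genes), and the medians were 1.69 and 0.80. Without sample 4 they were 11 of 11 and 2 of 7 (2.84% of all genes), with medians of 1.60 and 0.63.

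**Figure D3:**
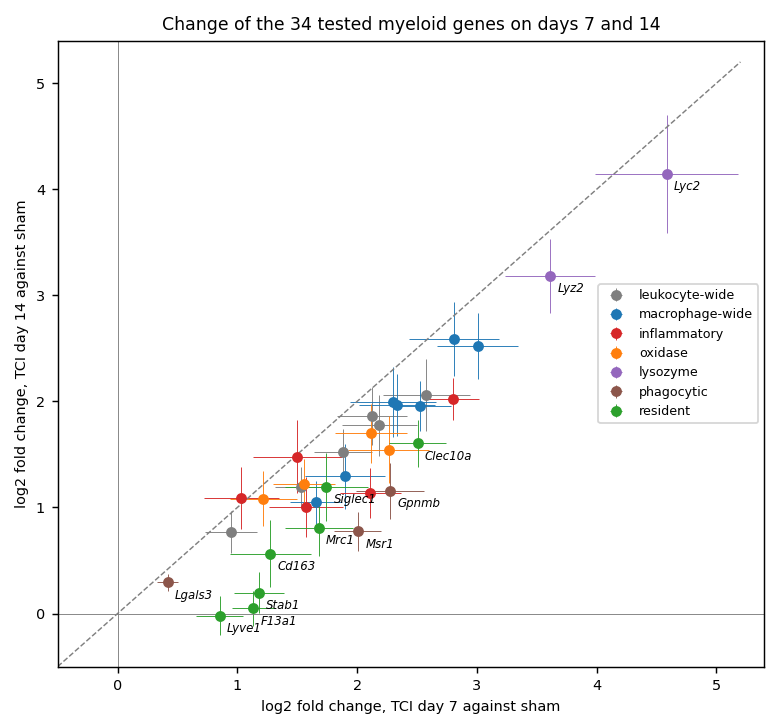
Each point is 1 of the 34 tested members, with its log2 difference from sham on TCI day 7 on the horizontal axis and on day 14 on the vertical axis. Bars are standard errors, colors are roles, and the dashed line marks equal change on both days. All but Cd86 lie on or below the line, and Lyve1, F13a1 and Stab1 lie near 0 on day 14 with day 7 values of 0.85, 1.13 and 1.18.

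Aif1 was used as a measure of macrophages in the same sample, and the other members were tested on log2(FPKM + 1) less that of Aif1. On day 7, 4 of 7 resident and 2 of 11 recruited members were lower relative to Aif1 at an adjusted p of 0.05, and on day 14 the counts were 6 of 7 and 5 of 11. As Aif1 itself rose, 97.8% and 98.1% of all genes were lower by this measure on days 7 and 14. The median log2 change of all genes relative to Aif1 was -2.26 and -1.97. A gene that did not change from sham thus passes as lower too, and these counts are not particular to the resident genes. What can be read is whether a gene rose by less than Aif1. The scale mattered for low genes. With a pseudocount of 0.1, which follows the FPKM more closely, 2 of 7 resident members were lower relative to Aif1 on day 7, Lyve1 and Stab1, and 5 of 7 on day 14, Lyve1, Stab1, F13a1, Cd163 and Mrc1. At this setting 96.1% and 96.3% of all genes were lower on days 7 and 14, so these counts are not particular to the resident genes either.

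In FPKM, Lyve1 was 21.3 ± 2.92% (SD, n = 4) of Aif1 in sham, 9.29 ± 2.27% (n = 3) on day 7 and 6.07 ± 4.32% (n = 4) on day 14. Its log2 change relative to Aif1 was -1.45 ± 0.42 (adjusted p = 0.000588) on day 7 and -2.01 ± 0.39 (adjusted p = 8.97e-07) on day 14. The median of all genes was -2.26 and -1.97, so on day 14 Lyve1 lay near the median gene. Stab1 went from 35.8 ± 5.87% to 18.1 ± 2.43% and 11.7 ± 6.85%, with changes of -1.12 ± 0.42 (adjusted p = 0.00837) and -1.80 ± 0.39 (adjusted p = 6.17e-06). For both genes no used late sample reached the sham range. The left-out sample 3 of TCI day 7 went against this for Lyve1, at 24.8% of Aif1, and not for Stab1, at 9.53%.

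F13a1 was 10.9 ± 3.65% of Aif1 in sham, 7.60 ± 3.23% on day 7 and 3.07 ± 1.80% on day 14, with a change of -1.94 ± 0.39 (adjusted p = 1.24e-06) on day 14. Mrc1 was 25.9 ± 5.87%, 20.8 ± 1.33% and 15.7 ± 11.2%, and Cd163 10.9 ± 5.38%, 8.57 ± 2.43% and 7.50 ± 8.87%, so both overlapped with sham on both days. Siglec1 went the other way in FPKM, from 4.40 ± 0.66% of Aif1 to 8.94 ± 2.30% and 6.28 ± 1.96%. On log2(FPKM + 1) it nevertheless fell relative to Aif1 on day 14, by 0.80 (adjusted p = 0.0391), and with a pseudocount of 0.1 the change was 0.16 ± 0.47 (adjusted p = 0.739), so its direction depends on the scale. Among recruited members, Lyz2 and Lyc2 rose relative to Aif1 on both scales and both days, with a log2 change of 1.31 ± 0.45 (adjusted p = 0.00345) for Lyz2 on day 7. Ncf1 fell on both scales and both days, with -1.08 ± 0.43 (adjusted p = 0.0123) on day 7. Lilrb4 rose relative to Aif1 only with the smaller pseudocount, by 2.0 ± 0.48 on day 7 (adjusted p = 3.62e-05) and 1.42 ± 0.45 on day 14 (adjusted p = 0.0015).

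**Figure D4:**
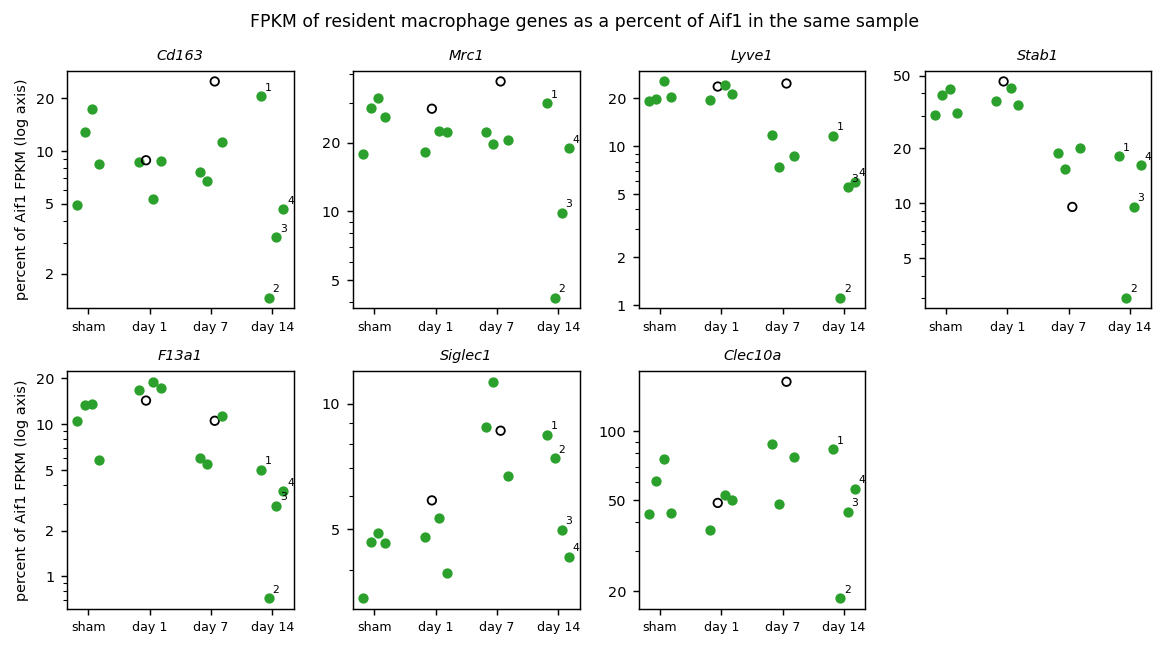
FPKM of the 7 tested resident members as a percent of Aif1 in the same sample, on log axes, with filled points for used samples, open points for left-out ones, and sample numbers beside the day 14 points. Lyve1 and Stab1 lie below the sham range in all used late samples, Siglec1 lies above it on day 7, and sample 2 is the lowest on day 14 in 6 of the 7.

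Few members could be told apart between TCI days 14 and 7. The median log2 difference was -0.50 over the 34 members, against -0.02 over all genes, and 33 of 34 had a negative value, although the mean FPKM of Itgax, Cd86 and Mpeg1 was higher on day 14. None was called lower at the study's cut-offs (0.0143% of all genes). At the looser adjusted p, F13a1 and Msr1 were lower (0.0499% of all genes), with log2 differences of -1.08 ± 0.18 (adjusted p = 0.0441) and -1.23 ± 0.20 (adjusted p = 0.0422). Neither call was stable, since the adjusted p rose above 0.05 with a pseudocount of 0.1 and without most single samples, and reached 0.238 for both without sample 2 of TCI day 7. All day 14 samples lay below all day 7 samples for Mrc1, Lyve1, Stab1, F13a1, Clec10a and Msr1, 6 of 34 (4.24% of all genes), of which 5 are resident genes. The decline was not confined to resident genes, since the median log2 difference was -0.87 for them, -1.12 for the tested phagocyte genes and -0.43 for the recruited ones. Relative to Aif1, 0 of 7 resident members passed the test as lower on day 14 than on day 7 (0.0214% of all genes), while the mean percent of Aif1 was lower on day 14 for all 7. Those means include sample 2 of TCI day 14, with Aif1 at 76.21 FPKM against 18.23 to 26.79 in the others. In sample 1 of that day Cd163 was 20.66% of Aif1, above the 6.77% to 11.34% of the used day 7 samples. The means were not compared without sample 2 or over all genes.

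The samples of day 14 differed among themselves. Sample 2 of TCI day 14 was the highest of its group in 27 of 34 members but in 1 of 7 resident ones, Siglec1, and sample 3 was the lowest in 24 of 34. Sample 1 was the highest in 5 of 7 resident members. In sample 2 the summed FPKM was 1350 for the lysozymes, against 364.2 to 465.4 in the other 3, and 27.89 for the resident genes, inside the 14.72 to 40.97 of the others. The summed T cell genes stood at 59.81 FPKM in sample 2 and 16.23 to 19.43 in the others, and 8 cell cycle genes at 27.0 against 8.07 to 10.73. The part of these in the myeloid values was not tested. In the left-out sample 3 of TCI day 7, which also carried the muscle RNA, the 8 resident genes summed to 108.6 FPKM against 50.9 to 57.2 in the used samples of that day, and it was the highest of all 4 in 5 of 7 resident members.

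Other genes of resident macrophages and of monocytes did not show the order seen in the members. Of 12 tested further genes of resident or mature macrophages, 5 were called higher on day 7 (1.83% of all genes) and 4 on day 14 (0.642%), 8 and 7 at the looser adjusted p (3.93% and 2.58%), with median log2 differences of 1.44 and 1.05, and none was lower. Of 11 tested further monocyte genes, 2 were called on day 7 and 3 on day 14, 6 and 4 at the looser adjusted p, against the same shares of all genes, with medians of 1.36 and 0.76, and none was lower. On day 14 the further resident genes thus had the higher median of the 2 lists, the reverse of the members, and the difference was not tested. How many of these further genes passed the filter only through the late days was not counted. The T cell genes summed to between 0.59 and 1.5 FPKM in sham, 22.64 and 65.53 on day 7 and 16.23 and 59.81 on day 14. Genes of neutrophils, which also use the oxidase, summed to 0.81 to 1.21 FPKM in sham, 5.3 to 20.07 on day 7 and 1.75 to 3.01 on day 14. All 5 B cell genes were under 1 FPKM in every sample. Red blood cell genes, a sign of blood in the tissue, summed to 57.85 to 118.9 FPKM in sham and from 87.78 up to 327.2 FPKM on day 1. Their sum lay between 19.96 and 53.23 FPKM on day 7 and between 105.5 and 194.4 FPKM on day 14. They were thus below sham on day 7 and mostly above it on days 1 and 14, and their part in the myeloid values was not tested.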

How the data were processed

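RNA of pooled L3–L5 ganglia was sequenced, 1 library per rat. Per the methods, the authors filtered the reads, mapped them with HISAT and Bowtie2, estimated expression with RSEM and deposited FPKM per gene, 1 table per sample. The submitters' processing notes also name CASAVA 1.4. The build is not given in the sources used here. The study gives read numbers, but the tables hold none per gene, so no counting error was computed. No sample pair shared over 2.78% of identical values above 0.

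From the deposited FPKM, log2(FPKM + 1) was tested with limma 3.58.1 (R 4.3.3), with all 4 groups in 1 fit, an intensity trend, Benjamini-Hochberg adjustment over 14023 genes, and the cut-offs of the study. Ratios to Aif1 were fitted alike. The procedure was tested on simulated data. The members and lists were chosen with earlier results of these data known. By rule, Aif1, Cd68, Ptprc, Spi1 and the tested members of 5 roles are given in every sample. P-values measure the spread between single rats. Figures used matplotlib 3.10.9 in Python 3.11.15.

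The alternatives were all 16 samples, 2 groups only, no trend, quantile normalization, other filters, a pseudocount of 0.1, other adjusted p limits, other reference genes, a replicate block and each sample left out. Comparisons of single members between days 14 and 7, and counts by role without single day 14 samples, were chosen after seeing the data.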

Additional observations from a re-analysis of the deposited data

Results flagged for a closer look

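In 16 of 68 groups of 4 samples (the 34 tested members in sham and on TCI day 14) 1 sample lay far from the other 3, with a gap to the nearest of them above Dixon's 95% critical value. Chance flags about 1 in 20 independent groups. The 34 members were read in the same 4 rats of each group, so their flags are not independent and cannot be held against that rate. In 12 of the 16 the outlying sample was the high sample 2 of TCI day 14. In that sample Ptprc was at 13.77 FPKM (3.11 to 4.88 in the other 3), Cd53 at 25.63 (10.5 to 12.62), Spi1 at 20.2 (5.93 to 7.55), Aif1 at 76.21 (18.23 to 26.79), Cd68 at 40.78 (10.67 to 15.7) and Pld4 at 38.48 (10.75 to 13.89). Itgax was at 7.64 (1.15 to 1.99), Cd86 at 6.23 (1.13 to 1.78), Cyba at 68.5 (20.88 to 25.95), Ncf1 at 27.97 (11.11 to 12.64), Lyz2 at 1184.67 (318.83 to 408.3) and Lyc2 at 164.98 (45.35 to 57.11). None of the 12 is a resident gene. In sample 1 of TCI day 14 Cd163 was high, at 4.77 FPKM (0.59 to 1.25 in the others). Sample 1 of sham was low in Itgam, at 0.31 FPKM (0.52 to 0.54), in Pld4, at 2.64 (3.74 to 3.94), and in Cybb, at 0.8 (1.11 to 1.16).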

How the results depend on the processing

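The tests as reported called 21 members higher on TCI day 7, 7 on day 14, 0 on day 1 and 0 lower between days 14 and 7, and found 4 and 6 resident members lower relative to Aif1 on days 7 and 14. The counts for day 1 stayed at 0 under each alternative run. At an adjusted p of 0.05 the other counts became 31, 26 and 2. Day 14 fell to 1 with only the 2 groups compared, to 2 without a filter and to 4 without the trend, and rose to 11 with a pseudocount of 0.1. Day 7 fell to 12 with a mean of at least 5 FPKM, where 15 members were tested. Relative to Aif1 that filter left 1 resident member tested and 0 lower on both days. The day 7 ratio count became 6 with only the 2 groups compared (4 on day 14), 2 with a pseudocount of 0.1, 1 at an adjusted p of 0.001 (4 on day 14), and 6 with Cd68 or Ptprc as reference. The counts under the alternatives here and below stand without the share of all genes called in the same setting. A change in them can thus not be read as particular to the members.

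With each sample left out in turn, the count was 5 to 28 on day 7, 1 to 13 on day 14, 3 to 6 and 5 to 6 for the ratios on days 7 and 14, and 0 for the rest. It was 5 on day 7 without sample 1 or 2 of that day and 6 without sample 1 or 2 of sham, and 1 on day 14 without sample 1 or 2 of sham. Without sample 2 of TCI day 14 the counts were 28 and 13.

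Samples share numbers across groups, and the main fit did not pair them. The 18 same-number pairs had correlations of -0.0952 to 0.269, 4 of them over 0.1, and 6 of 14 samples correlated best with their own number. The share expected by chance was not computed, so these values cannot settle whether samples of the same number belong together. With a replicate block 10 members were called on day 7 and 1 on day 14, the ratio counts were 4 and 6, and Itgax between days 14 and 7 changed sign, to 0.0708.

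Of 758 values of single members under the other alternatives, 681 kept direction and side of the cut-offs, 47 lost the call, 25 gained it and 5 changed sign. Beside the block, these were Itgax, TCI day 14 against 7, at 0.0336 over all 16 samples and 0.0567 with quantile normalization, Cd86 in the same comparison at -0.0295 over all 16 samples, and F13a1, day 14 against sham, at -0.22 with quantile normalization. With 1 sample left out, 16 of 1428 changed sign, with ranges for day 14 against 7 of -0.34 to 0.25 for Cd86, -0.48 to 0.19 for Itgax, -0.67 to 0.0883 for Mpeg1 and -0.43 to 0.0974 for Ncf1, and for day 14 against sham of -0.0446 to 0.12 for F13a1 and -0.22 to 0.11 for Lyve1. The causes were not tested. Values near 1 FPKM carry the most scaling error, and groups of 3 or 4 rats limit what can be called.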
